A study of Zea mays with 18 samples.

Results

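Sex determination in maize ends with the removal of one floral organ from flowers that begin with both. The data described here are the transcript levels of 4 genes of this process, *tasselseed1* (*ts1*, GRMZM2G104843), *tasselseed2* (*ts2*, GRMZM2G455809), *silkless1* (*sk1*, GRMZM2G021786) and *grassy tillers1* (*gt1*, GRMZM2G005624). They were chosen by their identifiers, and all 4 were found among the 76612 identifiers of the deposited table. The names of 3 of the 4 were also held by the RefSeq gene table used here, which gives GRMZM2G021786 no symbol, so that the name *sk1* rests on the choice of members.

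The samples were ear at silking (growth stage R1) and ear inflorescence, the younger ear (stage V16), of 3 genotypes in the elite hybrid NN6306. Event 1 and event 2 are independent transformants that express ATHB17Δ113, a class II homeodomain-leucine zipper (HD-Zip) protein of Arabidopsis that lacks its first 113 amino acids in maize, from the constitutive rice actin promoter, and the control was the same hybrid without the transgene. Plants were grown in Illinois in 2012 with no stress treatment. The vector of the events also carried a glyphosate tolerance gene as selectable marker, likewise with the rice actin promoter. Traits against insects and for glyphosate tolerance, where field entries held them, were by the paper's account the same in events and control. Each of the 6 groups of tissue and genotype held 3 biological replicates, 18 samples in all, and the labels do not say how many plants made up a replicate.

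The pistil is lost from the tassel, and from the lower floret of each ear spikelet, by a pathway that depends on jasmonate. *ts1* encodes a plastid lipoxygenase of jasmonate synthesis and *ts2* a short-chain alcohol dehydrogenase, and mutants of either set seed in the tassel. *sk1* encodes a UDP-glycosyltransferase that protects the pistil of the ear from this pathway, and mutants lack silks. *gt1* encodes a class I HD-Zip protein that holds back the growth of axillary buds and of carpels in the tassel.

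Values are normalized counts, that is reads per identifier divided by one DESeq scale factor per sample, and whole reads could be recovered from them. The reads assigned to transcripts ranged between 27293941 and 52655576 per sample, in which a read that mapped to several transcripts appears to count once on each. For *ts1* this includes reads that may be shared with its close paralog *lox7* (GRMZM2G070092), so that the level of *ts1* is uncertain to that extent. One library stood apart in each tissue. In ear inflorescence, event 1 replicate 1 differed from its replicates with an SD of the log2 difference of 0.97 and 0.77, and in ear, event 2 replicate 2 with 0.80 and 0.60. The other 14 replicate pairs lay between 0.38 and 0.58. As whole tissue was used, fewer cells of a type and less RNA per cell cannot be told apart in any of these values.

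*sk1* was the one member with every ear library below every ear inflorescence library, in all 3 genotypes. In event 1 it had 3.57, 5.04 and 7.03 normalized counts in ear, against 35.4, 51.2 and 48.4 in ear inflorescence. In event 2 it had 9.52, 7.83 and 13.6 in ear, against 27.6, 146.9 and 56.0 in ear inflorescence. In control it had 7.03, 10.6 and 12.7 in ear, against 35.8, 75.2 and 32.6 in ear inflorescence. The gap between the tissues ran between 13.6 in the highest ear library and 27.6 in the lowest ear inflorescence library. The share of all identifiers whose tissues separate over the 3 genotypes in this way was not computed. Within a genotype the tissues did not overlap at 42.5% of all identifiers in event 1, 34.9% in event 2 and 49.1% in control.

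The *sk1* values rest on 70 reads in the 9 ear libraries, 3 to 17 in each, and 594 reads in the 9 ear inflorescence libraries, 30 to 127 in each. With the exact 95% interval for counting error alone, the read ratio of ear to ear inflorescence was 0.117 (0.0592 to 0.211) in event 1, 0.155 (0.104 to 0.225) in event 2 and 0.210 (0.134 to 0.318) in control.

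**Figure D1:**
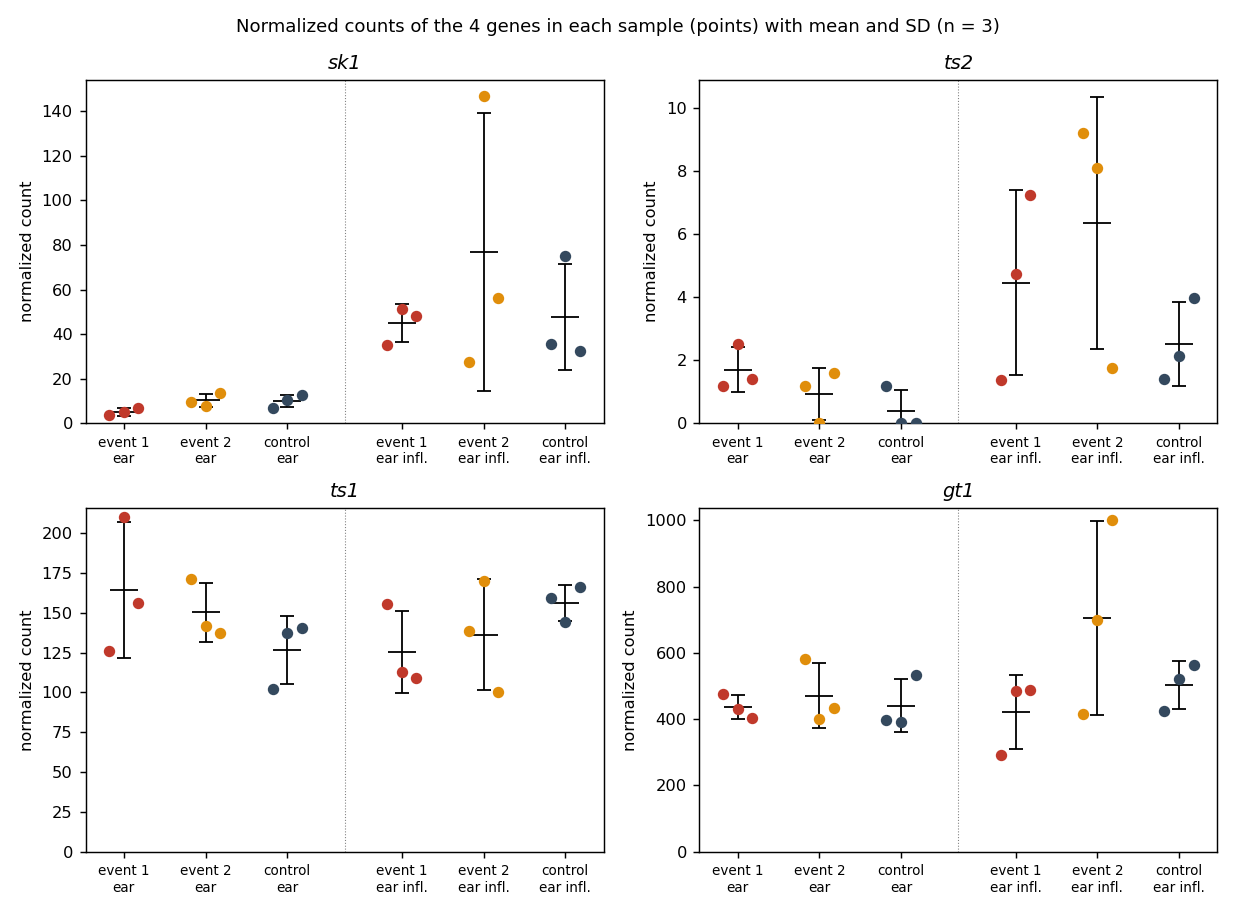
Normalized counts (y axis, linear, from 0) of *sk1*, *ts2*, *ts1* and *gt1* in the 3 genotypes of ear and of ear inflorescence (ear infl.). Points are samples in the order of their replicate numbers, and bars give the mean and SD of 3 samples. All 9 ear samples of *sk1* lie at or below 13.6, under all 9 ear inflorescence samples, whereas the tissues overlap for *ts1* and *gt1*.

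Differences were tested with limma on log2(normalized count + 1) over all identifiers, and calls were made where the raw p did not exceed 0.0001. On that log2 scale *sk1* fell by 2.91 ± 0.48 (SE) in ear against ear inflorescence in event 1 (limma adjusted p = 9.49e-05), and the difference was -2.49 ± 0.48 in event 2 (limma adjusted p = 0.000767), both past the threshold. In control the log2 difference was -2.07 ± 0.48, which missed the raw p threshold (limma adjusted p = 0.00205). Thus 1 of 4 members was called in event 1, 1 of 4 in event 2 and 0 of 4 in control. Of all identifiers 6.32% were called as lower in ear in event 1, 2.7% in event 2 and 6.65% in control, so that 1 member of 4 is a description of *sk1* and no result about the list. The groups did not overlap at 42.5% of all identifiers in event 1, at 34.9% in event 2 and at 49.1% in control.

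The tissue difference of *sk1* itself was not shown to differ between genotypes. Minus that of control, it was -0.84 on the log2 scale in event 1 (95% interval -2.25 to 0.58) and -0.42 in event 2 (-1.84 to 1.00), and neither was called. Over the 3 genotypes, in a comparison added after seeing the data, the log2 difference of *sk1* was -2.49 ± 0.28 and was called (limma adjusted p = 3.12e-07). In that comparison 14.7% of all identifiers were called as lower and 14.3% as higher in ear. With any 1 of the 18 samples left out it was called in 18 of 18 fits. Within one genotype the call depended on single libraries. It held in 1 of the 6 fits that left out a sample in event 1, the one without event 1 ear replicate 3, and in 1 of 6 in event 2, the one without event 2 ear inflorescence replicate 1, although the adjusted p stayed between 0.000345 and 0.0257 in all of these and the 6 fits of control.

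The spread of *sk1* in ear inflorescence was wide. Event 2 replicate 2 had 146.9, the highest value of any library, and without it *sk1* differed by -1.87 between the tissues of event 2 (adjusted p = 0.00751). The same library had the highest summed level of the 12 matched inflorescence meristem genes, 27402, where the other 8 ear inflorescence libraries had 13501 to 21924. It also had 934 normalized counts summed over 5 pollen and anther genes, and the other 8 had 0 to 4.2. The part of these in the *sk1* level was not tested.

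*ts2* was close to the limit of detection in ear. It had 1, 2 and 1 reads in event 1, 1, 0 and 2 reads in event 2 and 1, 0 and 0 reads in control. In ear inflorescence the libraries held 2, 5 and 6 reads in event 1, 10, 7 and 3 reads in event 2 and 2, 3 and 5 reads in control. The tissues did not overlap in event 2 and in control, as was so for 34.9% and 49.1% of all identifiers, and they overlapped in event 1. In normalized counts *ts2* averaged 1.71 ± 0.71 in ear against 4.46 ± 2.94 in ear inflorescence in event 1 and 0.93 ± 0.83 against 6.35 ± 4.004 in event 2 (SD, n = 3 each). In control *ts2* averaged 0.39 ± 0.68 in ear against 2.51 ± 1.33 in ear inflorescence.

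With at most 2 reads in each ear library, the ratio of summed reads is given beside the limma test. Its interval holds counting error alone and no variation between replicates, so that it is too narrow for a comparison of tissues. Over the 3 genotypes *ts2* had 8 reads in ear and 43 in ear inflorescence, a ratio of 0.261 after scaling (exact 95% interval for counting error 0.106 to 0.561). By genotype the ratio was 0.436 (0.103 to 1.41) in event 1, 0.183 (0.0349 to 0.618) in event 2 and 0.160 (0.00368 to 1.12) in control. In the limma test *ts2* was not called in any genotype, with adjusted p of 0.263 in event 1, 0.0262 in event 2 and 0.0711 in control. Over the 3 genotypes its log2 difference was -1.36 ± 0.34 (limma adjusted p = 0.00193), which also missed the raw p threshold.

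*ts1* showed no direction that the genotypes shared. It had 126.0, 210.2 and 156.0 normalized counts in ear against 155.2, 112.8 and 108.8 in ear inflorescence in event 1. In event 2 it had 171.3, 142.0 and 137.5 in ear against 138.7, 170.0 and 100.3 in ear inflorescence. In control it had 101.9, 137.3 and 140.4 in ear against 159.1, 144.0 and 166.2 in ear inflorescence. The control groups did not overlap, with ear lower, and the groups of both events did. In control 49.1% of all identifiers did not overlap between the tissues.

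The log2 difference of *ts1* between ear and ear inflorescence was 0.37 ± 0.22 in event 1 (95% interval -0.09 to 0.83), 0.17 ± 0.22 in event 2 (-0.29 to 0.63) and -0.32 ± 0.22 in control (-0.78 to 0.14). Over the 3 genotypes it was 0.07 ± 0.13 (-0.19 to 0.34), an interval that leaves out a 2-fold change in either direction. This scale matters for *ts1*. When the samples were scaled by their total assigned reads instead, a setting added after seeing the data, the median log2 difference of identifiers with a mean of at least 10 moved to -0.52 in event 1, -0.35 in event 2 and -0.47 in control, and *ts1* was then at -0.19 in event 1, -0.15 in event 2 and -0.82 in control, above that shift in both events and below it in control.

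*gt1* was also not called between the tissues in any genotype. It had 475.4, 429.3 and 403.4 normalized counts in ear against 293.2, 485.2 and 487.1 in ear inflorescence in event 1. In event 2 it had 581.7, 399.2 and 433.4 in ear against 417.0, 700.7 and 1002 in ear inflorescence, and in control 398.2, 390.7 and 532.1 in ear against 423.4, 522.1 and 564.5 in ear inflorescence. The tissues overlapped in every genotype. The width of the ear inflorescence values came from event 1 replicate 1 at the low end, which stood apart over all identifiers, and event 2 replicate 3 at the high end.

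The log2 difference of *gt1* was 0.08 ± 0.26 in event 1 (95% interval -0.46 to 0.62), -0.51 ± 0.26 in event 2 (-1.05 to 0.03) and -0.20 ± 0.26 in control (-0.74 to 0.34). Without event 2 ear inflorescence replicate 3 the value in event 2 was -0.22, and without event 1 ear inflorescence replicate 1 the value in event 1 was -0.16. The interval of event 2 holds a 2-fold fall. The adjusted p of *gt1* in event 2 was under 0.05 in 1 of 6 fits with a sample left out and in 2 of 11 other settings. Over the 3 genotypes *gt1* differed by -0.21 ± 0.15 (95% interval -0.52 to 0.10). In 10 other settings that value was -0.67 to -0.17, with an adjusted p under 0.05 in 1 of them. Neither *ts1* nor *gt1* was called in any tissue comparison.

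**Figure D2:**
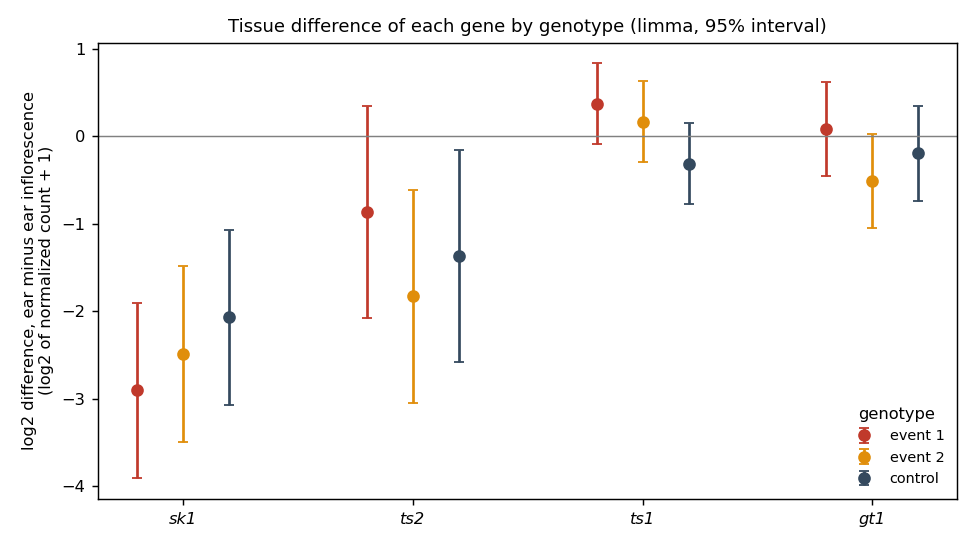
Log2 difference between ear and ear inflorescence (y axis, log2 of normalized count + 1) of each gene in event 1, event 2 and control, with the 95% interval of the limma fit. The intervals of *sk1* lie below 0 in all 3 genotypes, between -3.91 and -1.07, and those of *ts1* and *gt1* span 0.

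Ordered by group means, the levels of each gene fell into few steps. For *sk1* the order was 76.8 in event 2, 47.9 in control and 45.0 in event 1 ear inflorescence, then 10.3 in event 2, 10.1 in control and 5.21 in event 1 ear, and among neighbours the ranges were separate only between the lowest ear inflorescence group and the highest ear group. For *ts1* the means ran between 125.6 in event 1 ear inflorescence and 164.1 in event 1 ear, and for *gt1* between 421.8 in event 1 ear inflorescence and 706.5 in event 2 ear inflorescence. For *ts1*, *gt1* and *ts2* the ranges of all neighbours in the order overlapped. Within groups the SD of log2 values was 0.63 for *sk1* and 0.36 for *gt1*, against a median of 0.41 and 0.24 for identifiers of like mean level, whereas that of *ts1* was 0.28 against a median of 0.28.

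The balance of the gene that protects the pistil and the gene that acts against it was described by the ratio of *sk1* to *ts1* reads within each library, which does not depend on the scale factor. The ratio was 0.0283, 0.0240 and 0.0451 in event 1 ear, 0.0556, 0.0551 and 0.0988 in event 2 ear and 0.0690, 0.0769 and 0.0902 in control ear. In ear inflorescence it was 0.228, 0.454 and 0.444 in event 1, 0.199, 0.864 and 0.559 in event 2 and 0.225, 0.522 and 0.196 in control. The highest ear library was at 0.0988 and the lowest ear inflorescence library at 0.196. The 3 libraries of event 1 ear were below the 3 of control ear and the 3 of event 2 ear. They held 3 to 5 *sk1* reads each. In normalized counts *sk1* itself met between event 1 and control in ear only at a tie of 7.03. That was 5 reads in event 1 replicate 3 and 6 reads in control replicate 1. The share of gene pairs whose ratio separates the tissues, or these ear groups, was not computed. Since gene lengths were not used, the ratio compares libraries and not the levels of one gene with the other, and as the members were chosen with earlier results known it carries no test. The ratio of *sk1* to *ts2* is not given by library, because *ts2* had 0 to 2 reads in each ear library.

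**Figure D3:**
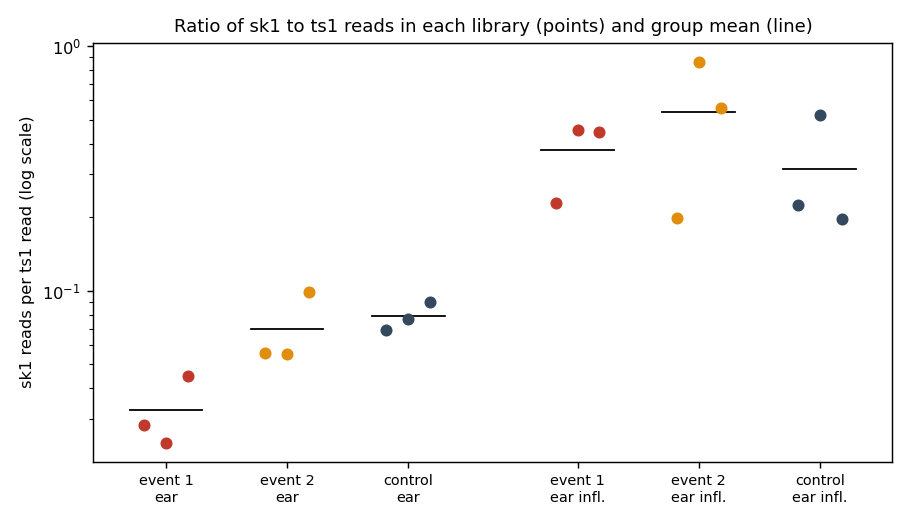
Reads of *sk1* per read of *ts1* in each library (y axis, log scale) for the 3 genotypes of ear and of ear inflorescence (ear infl.). Points are libraries and lines are group means. All 9 ear libraries lie at or below 0.0988 and all 9 ear inflorescence libraries at or above 0.196.

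Between the events and control no member was called in either tissue. In ear, *sk1* differed by -0.84 on the log2 scale in event 1 (95% interval -1.84 to 0.16) and by 0.03 in event 2 (-0.97 to 1.03). In ear inflorescence *sk1* differed by -0.003 ± 0.48 (SE) in event 1 and by 0.45 in event 2 (-0.55 to 1.46). Each 95% interval holds a 2-fold difference in at least 1 direction, so that for *sk1* a change of that size was not excluded. In ear this was a fall in event 1 and a rise in event 2.

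*ts1* and *gt1* were measured more closely. *ts1* differed by 0.36 in event 1 (95% interval -0.11 to 0.82) and by 0.25 in event 2 (-0.21 to 0.71) in ear, and by -0.33 in event 1 (-0.79 to 0.13) and -0.23 in event 2 (-0.69 to 0.23) in ear inflorescence. *gt1*, itself of the HD-Zip family, differed by -0.003 in event 1 (-0.54 to 0.54) and by 0.09 in event 2 (-0.45 to 0.63) in ear, and by -0.28 in event 1 (-0.82 to 0.26) and 0.41 in event 2 (-0.13 to 0.95) in ear inflorescence. All 8 of these intervals span 0 and lie within 1 unit on the log2 scale, that is within a 2-fold change. Each comparison with control in one tissue used the same 3 control samples for both events.

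*ts2* was at or below 3 reads in all 3 ear groups, so that no fold is given there. Event 1 ear held 4 reads and control ear 1 read in all. Their normalized counts did not overlap, but only by 1.19 in the lowest event 1 library against 1.17 in the highest control library. Each of these is 1 read, so that in reads the groups tie. In ear inflorescence *ts2* differed from control by 0.53 in event 1 (95% interval -0.69 to 1.74) and by 0.92 in event 2 (-0.29 to 2.14).

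Across all identifiers, calls between an event and control were rare. In ear 0.128% were called in event 1 and 0.0444% in event 2, and in ear inflorescence 0.0574% in event 1 and 0.0666% in event 2. The groups did not overlap at 13% of identifiers for event 1 and 6.49% for event 2 in ear, and at 3.85% for event 1 and 14% for event 2 in ear inflorescence. Of the members, this was so in 1 of these comparisons, *ts2* in event 1 ear, by the 1.19 against 1.17 normalized counts given above, which are 1 read each. *sk1* in event 1 ear lay below control except for a tie at 7.03.

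Event 1 and event 2 were also set against each other. In ear *sk1* was at 3.57 to 7.03 in event 1 and at 7.83 to 13.6 in event 2, so that the events did not overlap, and the log2 difference was -0.87 ± 0.48 (95% interval -1.87 to 0.13, adjusted p = 0.937). In ear inflorescence *gt1* had the smallest raw p of any event comparison of a member, with a log2 difference of -0.69 ± 0.26 (limma adjusted p = 0.884). Called identifiers made up 0.0548% in ear and 0.064% in ear inflorescence, and groups without overlap 9.18% in ear and 5.41% in ear inflorescence. None of the 21 event differences of members for which a fold is given was called by limma, and 1 of the 21 had a raw p under 0.05. By edgeR and DESeq2 on the recovered reads none was called either.

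The effect of each event in ear was set against its effect in ear inflorescence. For *sk1* this is the difference between genotypes given above, -0.84 ± 0.68 on the log2 scale in event 1 and -0.42 ± 0.68 in event 2. For *ts1* in event 1 it was 0.69 ± 0.31, with the smallest raw p of these (limma adjusted p = 1), where *ts1* was above control in ear and below control in ear inflorescence. For *ts1* in event 2 it was 0.48 ± 0.31. For *gt1* it was 0.28 ± 0.36 in event 1 and -0.32 ± 0.36 in event 2. No member was called, against 0.0196% of all identifiers for event 1 and 0.0117% for event 2.

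**Figure D4:**
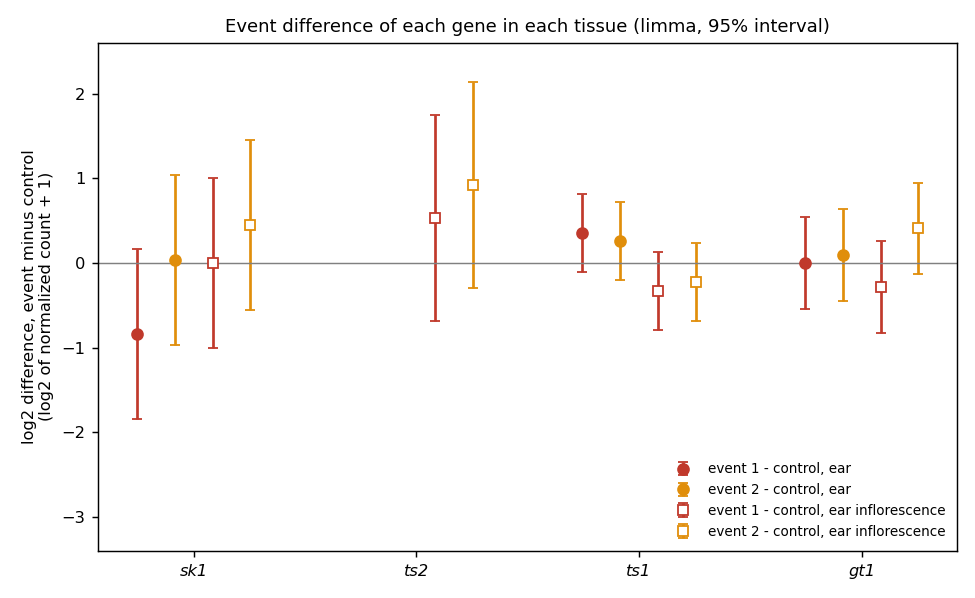
Log2 difference between each event and control (y axis, log2 of normalized count + 1) of each gene in ear (filled circles) and in ear inflorescence (open squares), with the 95% interval of the limma fit. *ts2* in ear is left out because all 3 groups held at most 3 reads per library. Every interval spans 0.

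The identifiers whose levels ran most like each member over the 18 samples were listed by Pearson's r of log2 values, among identifiers with a mean of at least 10, as a description. For *sk1* they were GRMZM2G054603 (r = 0.97), GRMZM5G825885 (r = 0.96) and GRMZM2G155490 (r = 0.96), none of which has a RefSeq symbol here, and 536 identifiers had an r of at least 0.9. GRMZM2G054603 had 16.6 to 67.6 normalized counts in ear against 683 to 2287 in ear inflorescence. After the group means were taken out, r with *sk1* was 0.87 for GRMZM2G054603, 0.88 for GRMZM5G825885 and 0.78 for GRMZM2G155490. All 18 points share the depth of their libraries with both genes of a pair.

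For *ts2* they were *pcna1* (GRMZM2G030523, r = 0.87), GRMZM2G007028 (r = 0.85) and *pcna2* (GRMZM2G108712, r = 0.85). *pcna1* and *pcna2* encode the sliding clamp of DNA replication, and *pcna1* had 972 to 1746 normalized counts in ear against 1155 to 2419 in ear inflorescence. With 0 to 10 reads of *ts2* per library this is no finding. For *ts1* the highest r was 0.73, with GRMZM2G412850, GRMZM5G842022 and GRMZM5G834410, and for *gt1* it was 0.80 with GRMZM2G086604, followed by *m20* (GRMZM2G059102, r = 0.79) and GRMZM2G039880 (r = 0.78). Among the members themselves r was 0.60 for *ts2* and *sk1* and 0.43 for *sk1* and *gt1*, and after the group means were taken out it was 0.07 and 0.40.

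*ts1* is one of many genes of its pathway. Jasmonate is made from fatty acids by lipoxygenases, allene oxide synthase, allene oxide cyclase and oxophytodienoate reductase. Of 13 matched genes of jasmonate synthesis and turnover, 7 were called as higher in ear in event 1, 4 in event 2 and 7 in control, and 0 as lower in any of them. Called as higher in ear were 8.46% of all identifiers in event 1, 5.18% in event 2 and 7.16% in control. The median log2 difference of the 13 was 1.40 in event 1, 0.88 in event 2 and 1.35 in control, beside -0.05, -0.00 and -0.06 for all identifiers. The median of the 8 matched green tissue genes was 1.86 in event 1, 1.22 in event 2 and 1.35 in control, and their part in the jasmonate values was not tested.

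*aos1*, which encodes allene oxide synthase, averaged 8632 ± 1244 normalized counts in ear against 1027 ± 503 in ear inflorescence in event 1, 6534 ± 1407 against 1082 ± 404 in event 2 and 7219 ± 736 against 783 ± 258 in control (SD, n = 3 each). In control it rose by 3.25 ± 0.32 on the log2 scale (limma adjusted p = 4.62e-07) and the lipoxygenase gene *lox11* rose by 2.29 ± 0.23 (adjusted p = 5.69e-07). The only gene of the list with a negative difference in control was *lox9*, at -0.48 ± 0.14 (limma adjusted p = 0.00965, not called). *lox7*, the paralog of *ts1*, had 62.1 to 147.3 normalized counts in ear against 41.3 to 87.5 in ear inflorescence and was not called. *ts5*, which encodes a cytochrome P450 of jasmonate turnover and gives tassel seeds when overexpressed, was between 0 and 4.76 normalized counts in every library.

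**Figure D5:**
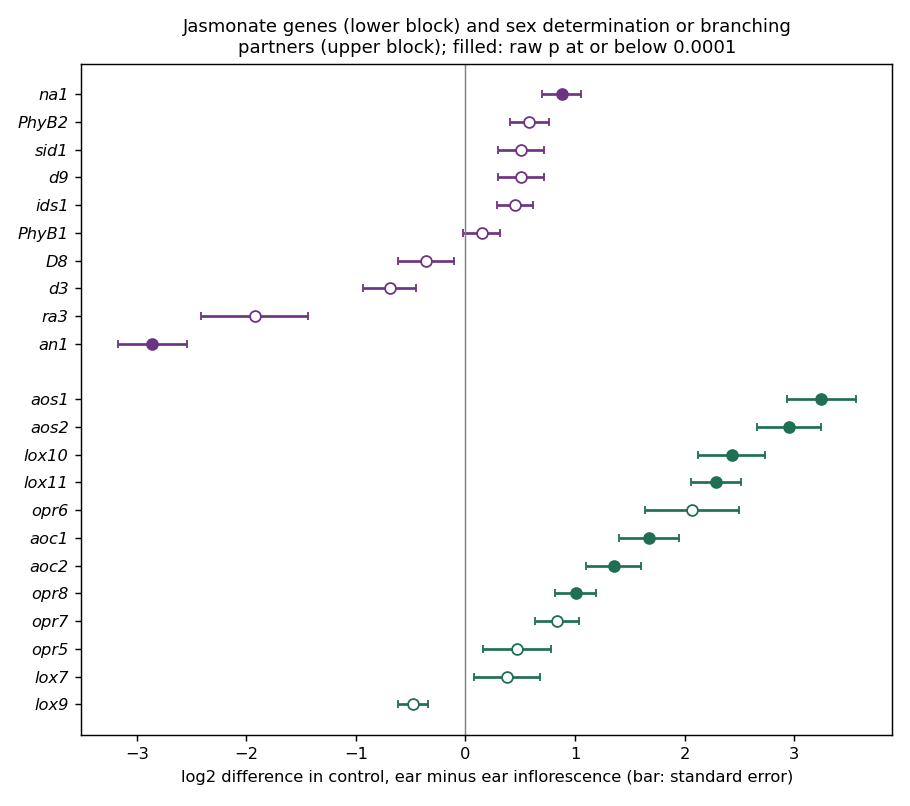
Log2 difference between ear and ear inflorescence in control (x axis, log2 of normalized count + 1, bar: standard error) for genes of jasmonate synthesis and turnover (lower block) and for sex determination and branching genes (upper block), without *ts5*, which was near 0 in both tissues. Filled points passed a raw p of 0.0001. *aos1* is at 3.25 and *an1* at -2.86.

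Of 8 matched genes named ZIM or JAZ, the family that holds the repressors of jasmonate signalling, 1 was called as higher in ear in each genotype and 0 as lower. That gene was *ZIM28*, which in control had 166 to 337 normalized counts in ear against 18.6 to 31.0 in ear inflorescence. *ZIM26* had 14.1 to 26.4 against 3.98 to 5.01 (limma adjusted p = 0.0126, not called), and *ZIM18* was at or below 1.17 in both. The share called as higher among all identifiers was 8.46% in event 1, 5.18% in event 2 and 7.16% in control.

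Of 11 matched genes that act with the members in sex determination or branching, 0 were called as higher and 1 as lower in ear in event 1, 0 and 1 in event 2 and 1 and 1 in control. Among all identifiers 8.46% were called as higher and 6.32% as lower in event 1. The shares were 5.18% and 2.7% in event 2 and 7.16% and 6.65% in control. *an1*, an enzyme of gibberellin synthesis whose mutants keep anthers in the ear, averaged 285 ± 88.3 normalized counts in ear against 2304 ± 922 in ear inflorescence in event 1, 406 ± 190 against 1966 ± 467 in event 2 and 342 ± 39.8 against 2501 ± 412 in control (SD, n = 3 each). In control *an1* fell by 2.86 ± 0.31 on the log2 scale (limma adjusted p = 1.69e-06). *na1*, an enzyme of brassinosteroid synthesis whose mutants have feminized tassels, rose by 0.88 ± 0.18 (adjusted p = 0.000723), just inside the raw p threshold. That call was lost in 5 of the 6 fits that left out a control sample, all but the one without ear replicate 1, and in 8 of 11 other settings, with a lowest value of 0.37 under scaling by total assigned reads.

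*ra3*, a trehalose phosphate phosphatase that limits branching of the inflorescence, differed by -1.92 ± 0.49 in control (limma adjusted p = 0.00412, not called), with 7.03 to 21.1 normalized counts in ear against 28.6 to 64.5 in ear inflorescence. *PhyB2*, a phytochrome, differed by 0.58 ± 0.18, and *ids1*, an AP2 type transcription factor of the spikelet, by 0.45 ± 0.16, and neither was called. *ids1* was at -0.05 with scaling by total assigned reads. Over the 7 lists, with 58 identifiers in all, 0 were called in any of the 6 event comparisons or the 2 comparisons of event effects by limma, and 27 of 464 such tests had a raw p under 0.05. Of all identifiers 2.79% to 6.76% had a raw p under 0.05 in each of these comparisons.

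The tissue labels were checked against markers of the cell types that the samples could hold. Of 12 inflorescence meristem genes, 3 were called as lower in ear in event 1, 2 in event 2 and 2 in control, and 0 as higher. Of all identifiers 6.32%, 2.7% and 6.65% were called as lower. The median log2 difference of the 12 was -1.31 in event 1, -1.27 in event 2 and -0.42 in control. For all identifiers it was -0.05, -0.003 and -0.06. Over the 3 genotypes 7 of the 12 were called as lower and 1 as higher, beside 14.7% and 14.3% of all identifiers. *BA1*, a transcription factor of axillary meristems, had 8.20 to 16.9 normalized counts in ear against 191.6 to 328.8 in ear inflorescence in control, and *ub2*, an SBP-box gene of the inflorescence, had 515 to 1246 against 2178 to 2778. The call of *ub2* in control was lost in 5 of the 6 fits that left out a control sample, all but the one without ear replicate 2, and in 2 of 11 other settings, and that of *BA1* in none. *TD1*, a receptor kinase that limits the meristem, went the other way in control, at 568 to 726 against 287 to 456, without being called there. *fea2*, a receptor that also limits the meristem, overlapped between the tissues of control, at 880 to 969 against 751 to 881.

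Of 3 carpel and ovule genes 1 was called as higher in ear in each genotype. In control *zag2*, a MADS-box gene of the ovule, had 13489 to 15615 normalized counts in ear against 4146 to 4940 in ear inflorescence, and *ZAG1*, of the AGAMOUS type, had 809 to 964 against 480 to 590. The call of *zag2* in control was lost in 6 of 6 fits that left out a control sample and in 2 of 11 other settings, with log2 differences of 1.11 to 1.72. Of 8 green tissue genes 6 were called as higher in ear in event 1, 3 in event 2 and 5 in control, *rbcs1* and *lhcb3* having the smallest p in control. Beside these and the carpel counts, 8.46% of all identifiers were called as higher in event 1, 5.18% in event 2 and 7.16% in control. The call of *lhcb3* was lost without control ear inflorescence replicate 1 or replicate 2. The summed level of the green tissue genes was 31017 to 47527 in ear and 6479 to 15622 in ear inflorescence, and that of the meristem genes 12572 to 17013 and 13501 to 27402. The pollen expansin genes *EXPB1* and *EXPB10* were listed at 0 in every ear inflorescence library except event 2 replicate 2, and the summed pollen and anther level was 30.9 to 209 in ear. The summed green tissue and carpel levels were thus higher in ear, where *sk1* was lower. So was the pollen and anther level, save in event 2 ear inflorescence replicate 2. That library had the highest *sk1* and a pollen and anther level of 934, above every ear library. *BA1* and *ub2* were lower in ear as *sk1* was. The summed meristem levels overlapped, although the median log2 difference of the 12 genes was below 0 in all 3 genotypes. The part of these in the differences of *sk1* and of the jasmonate genes was not tested.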

How the data were processed

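RNA of 18 samples was sequenced in reads of 50 bases. Per the study's methods and processing notes, the authors used CASAVA 1.8.2 and Bowtie 0.12.8, mapped reads to the public B73 transcriptome (version 5a), assigned reads that mapped to up to 10 transcripts to all of them and normalized counts over all samples with DESeq, and the deposited values are that signal (normalized counts). Reads were recovered by dividing each sample by its smallest step, and 433951 of 433951 low values (100%) were whole within 0.1. All columns were mapped to samples by their labels.

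The test was limma 3.58.1 (R 4.3.3, trend, moderated variances, prior degrees of freedom 6.85) on log2(normalized count + 1), with 6 group means and 76612 identifiers, calls at the raw p threshold that the study used (0.0001) and Benjamini-Hochberg adjusted p beside it. An exact permutation test of 3 against 3 cannot go below p = 0.1. Alternatives were a pseudocount of 0.1, a mean of at least 10, the groups compared alone, the replicate block, quantile normalization, TMM, edgeR 4.0.16, DESeq2 1.42.0, no moderation and leaving out each sample. Scripts were tested on simulated data.

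The members and lists were chosen with earlier results of these data known. Named genes were the members, the 3 identifiers most like each, list genes called in an event comparison, up to 2 list genes per direction with the smallest raw p in control ear against ear inflorescence, and *tb1*, *ra3*, *ids1* and *ts5* where matched. A planned search for an HD-Zip motif in promoters was not run, as no sequence was used here, and no coordinates are given because the gene table is of another build.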

Additional observations from a re-analysis of the deposited data

How the results depend on the processing

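The direction of *sk1* between the tissues was the same in all 3 genotypes under every alternative, with log2 differences of -3.42 to -1.70, but its call in a single genotype was not. In control 1 member, *sk1*, was called by edgeR, by DESeq2 and with scaling by total assigned reads (added after seeing the data), against 0 as reported. In event 1 and event 2 the count was 0, against 1 as reported, when the groups compared were fitted alone, without moderation and with the 2 libraries that stood apart left out (added after seeing the data), and in event 2 also with quantile normalization, and it was 0 to 1 with 1 sample left out in each event. Over the 3 genotypes scaling by total reads called 2 members, *sk1* and *ts2*. With the replicate number as a block the counts stayed at 1 in event 1, 1 in event 2 and 0 in control. No pairing of samples by number is stated. The deviations of same-numbered samples correlated between -0.19 and 0.25, above 0.1 in 5 of 27 pairs and never in all 3 of a comparison. In 12 of 27 cases a sample correlated best with its own number. With 3 samples per group these values cannot exclude a pairing. The filter at a mean of 10 leaves out *ts2*. Values that were not called changed sign as follows; the cause was not tested. With scaling by total reads, between tissues, *ts1* was at -0.19 in event 1, -0.15 in event 2 and -0.39 over the 3 genotypes, *gt1* at -0.48 in event 1, and in control *fea2* at -0.28 and *ids1* at -0.053, and between event 1 and event 2 *ts1* was at 0.008 in ear inflorescence and -0.036 in ear. With quantile normalization *gt1* was at -0.002 between the tissues of event 1, and *sk1* at 0.008 in event 1 ear inflorescence and -0.065 in event 2 ear against control. Without the 2 libraries *gt1* was at -0.16 between the tissues of event 1, *sk1* at 0.16 in event 1 ear inflorescence against control and *ts2* at 0.12 between the events in ear inflorescence. With 1 sample left out the ranges that crossed 0 were, between tissues, -0.16 to 0.21 for *gt1* in event 1 and -0.038 to 0.34 for *ts1* in event 2. Against control they were -0.22 to 0.37 for *sk1* in event 1 and -0.17 to 1.01 in event 2 ear inflorescence, -0.18 to 0.20 for *sk1* in event 2 ear, and for *gt1* in ear -0.081 to 0.14 in event 1 and -0.067 to 0.24 in event 2. Between event 1 and event 2 they were -0.31 to 0.071 for *ts1*, -0.99 to 0.12 for *ts2* and -1.02 to 0.17 for *sk1* in ear inflorescence, and -0.093 to 0.27 for *ts1* and -0.21 to 0.065 for *gt1* in ear, and for the effect of event 2 in ear against that in ear inflorescence -0.98 to 0.20 for *sk1*. Each event or event effect value of a member was combined with each alternative, 495 combinations in all, and none was called. *ts2* in ear and in the event effects was left out of these. Depth limits *ts2* throughout and *sk1* in ear, where a library held 3 to 17 reads.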
